A study of Mus musculus with 2 samples.

Results

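The genes of cell division and DNA replication were followed through the stroma of mouse pancreatic tumours by single-cell RNA sequencing. They are 36 genes given by name, 16 that act in S phase, when DNA is copied, and 20 that act in mitosis, when the copies are parted. All 36 were among the 31054 features of both libraries. They are called members below. Levels are counts of unique molecular identifiers (UMIs), each standing for 1 captured RNA molecule, summed over the cells of a population and scaled to that population's total as CPM. UMIs were read from the 3' end and not scaled by gene length, so levels are compared between populations and libraries for a gene and not between genes.

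The tumours were an allograft model of pancreatic ductal adenocarcinoma in mice of genotype p16-CreERT2/R26-LSL-tdTomato. In these mice Cre recombinase, made from the p16 locus and active after induction, switches on the red protein tdTomato. Stromal cells of perfused, enzyme-digested tumours were sorted by tdTomato, and each sort gave 1 library with a 10x Genomics 3' kit. Both libraries come from the same genotype and tissue and differ by the sort, Tom positive or Tom negative. The labels used here give no age, sex, tumour line, time after induction or number of animals.

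With 1 library per sort no difference was tested. All 95% intervals, exact ones for values and ratios and Newcombe's for differences of shares, cover counting error only, since cells of 1 library are not replicates. A gene at 10 CPM or more in a library is called measured, and a measured gene at least 1.5-fold apart is called higher or lower. Shares of all genes are set beside such counts for the main filtering only, and none is given for alternative settings. Counts of genes with a ratio below 1 are not set against the share of all genes below 1. Values are given in pairs, the Tom positive one first. Filtering left 4301 and 6579 cells, at medians of 24178 and 20611 UMIs. In all, 3660 cell barcodes were present in both libraries. Of the kept cells, 233 and 1234 carried a doubted barcode, meaning one that the other library held with more than 5 times the UMIs, or that both held with under 5000 UMIs. Endothelial-like cells of the Tom negative library were shallow, with medians of 2148 UMIs for blood and 1602 UMIs for lymphatic vessels. By their markers, the sorted cells labelled stromal held 1550 and 2526 fibroblast-like, 1357 and 1877 mononuclear myeloid and 508 and 234 blood endothelial-like cells, with a few carcinoma-like ones. Populations are clusters made without any cell cycle or histone gene, so that the members did not shape them.

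A cell that divides first licenses its DNA by loading the Mcm2 to Mcm7 helicase, copies it with polymerases held on by the Pcna clamp, and then condenses and parts the chromosomes under the cyclin kinase Cdk1. Retinoblastoma proteins hold E2F factors back until cyclin D kinases release them, and p16, a product of Cdkn2a, blocks those kinases. Cdkn2a levels below are of the whole gene and were not split by product. E2F factors drive many S-phase genes, while mitotic genes are commonly held by NF-Y at CCAAT letters and by the DREAM and MuvB complexes at a site named CHR, the cell cycle genes homology region.

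Promoter letters of the S-phase and mitotic members differed in kind, and 6 promoters are shown for members whose levels are described below. In the RefSeq promoter table of GRCm38.p6, 31 of the 36 members had an entry. Those without one are Mcm4, Gins2, Ccna2, Aurkb and Tpx2. The 250 bases before the first listed start were searched on both strands for 3 kinds of letters. For Mcm7, Cdc6 and Cdca8 these bases lie wholly inside the gene body in GENCODE M21, and for some others in part. They were counted all the same. E2F letters were TTCCCGC, the variant TTGGCGC, the variant TTCGCGC and the variant TTGCCGC, which may overlap each other. CHR letters were TTTGAA or TTTAAA, and the third kind was CCAAT. E2F letters were in 8 of 14 S-phase promoters (57.1%) and 3 of 17 mitotic ones (17.6%), against 7.97% of all 27025 promoters in the table. Mcm7 and Cdc6 were among these 8. CHR letters were in 3 of 14 S-phase promoters (21.4%) and 11 of 17 mitotic ones (64.7%), against 25.5% of all. CCAAT was in 10 of 14 (71.4%) and 16 of 17 (94.1%), against 34.5% of all, and stood there at least 2 times in 35.7% and 64.7%, against 10.5% of all. Mcm5 and Mcm6 encode helicase subunits, Top2a untangles DNA, Ccnb2 encodes cyclin B2, Cdc20 activates the anaphase-promoting complex, and Plk1 is a mitotic kinase. The lines below give 150 bases before each start that lie outside that gene's own body in GENCODE M21. Overlap with other genes was not checked. They run 5' to 3' on the gene's strand, and capitals mark the letters searched on either strand.
Mcm5, chr8:75109359-75109508, plus strand: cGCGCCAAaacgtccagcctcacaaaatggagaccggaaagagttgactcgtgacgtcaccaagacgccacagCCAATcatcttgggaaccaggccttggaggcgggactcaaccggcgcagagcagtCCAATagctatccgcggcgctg
Mcm6, chr1:128359706-128359855, minus strand: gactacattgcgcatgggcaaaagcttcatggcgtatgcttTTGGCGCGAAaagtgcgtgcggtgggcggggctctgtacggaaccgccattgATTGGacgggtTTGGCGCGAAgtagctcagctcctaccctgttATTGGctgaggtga
Top2a, chr11:99024190-99024339, minus strand: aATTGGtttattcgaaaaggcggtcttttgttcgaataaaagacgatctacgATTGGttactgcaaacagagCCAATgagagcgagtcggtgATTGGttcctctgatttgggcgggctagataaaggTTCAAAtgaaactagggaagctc
Ccnb2, chr9:70421555-70421704, minus strand: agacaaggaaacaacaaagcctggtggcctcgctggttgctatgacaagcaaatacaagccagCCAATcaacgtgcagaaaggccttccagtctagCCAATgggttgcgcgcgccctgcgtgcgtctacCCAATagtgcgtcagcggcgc
Cdc20, chr4:118437353-118437502, minus strand: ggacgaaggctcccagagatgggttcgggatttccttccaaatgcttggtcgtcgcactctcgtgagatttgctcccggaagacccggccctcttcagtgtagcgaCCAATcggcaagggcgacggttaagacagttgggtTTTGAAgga
Plk1, chr7:122159285-122159434, plus strand: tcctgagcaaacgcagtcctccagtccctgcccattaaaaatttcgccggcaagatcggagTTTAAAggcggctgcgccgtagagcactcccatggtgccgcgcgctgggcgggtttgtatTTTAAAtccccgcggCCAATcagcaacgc
Mcm5 showed 1 E2F match and 2 CCAAT boxes in these bases, and Mcm6 showed 4 overlapping E2F matches in 2 places with 2 CCAAT boxes. Top2a held 4 CCAAT boxes and 1 CHR match, Ccnb2 3 CCAAT boxes, Cdc20 1 CCAAT box and 1 CHR match, and Plk1 2 CHR matches with 1 CCAAT box. A match is a run of letters and not a shown binding site.

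Dividing-cell RNA was spread over every main cell class of the stroma, but the levels differed widely between populations. The summed level of all 36 members was 457 and 568 CPM in fibroblast-like cells, the matrix-making cells of the stroma. It was 688 and 813 CPM in mononuclear myeloid cells, the macrophages, monocytes and related cells, and 574 and 1114 CPM in blood endothelial-like cells, which line blood vessels. Lymphatic endothelial-like cells, the lining of lymph vessels, reached 1658 CPM in the Tom positive library and 2227 CPM in the 34 Tom negative cells. Pericyte or smooth muscle-like cells, the mural cells that wrap vessels, stood at 1172 CPM in 46 Tom positive cells and 2267 CPM in 160 Tom negative cells. Lymphatic and mural cells thus stood above fibroblast-like, myeloid and blood endothelial-like cells in both libraries. Epithelial or carcinoma-like cells were few, 29 and 43, with 1653 and 834 CPM. Neutrophil-like cells, which are short-lived and do not divide, had 271 and 173 CPM, of which the S-phase members gave 191 and 100.03 CPM.

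**Figure D1:**
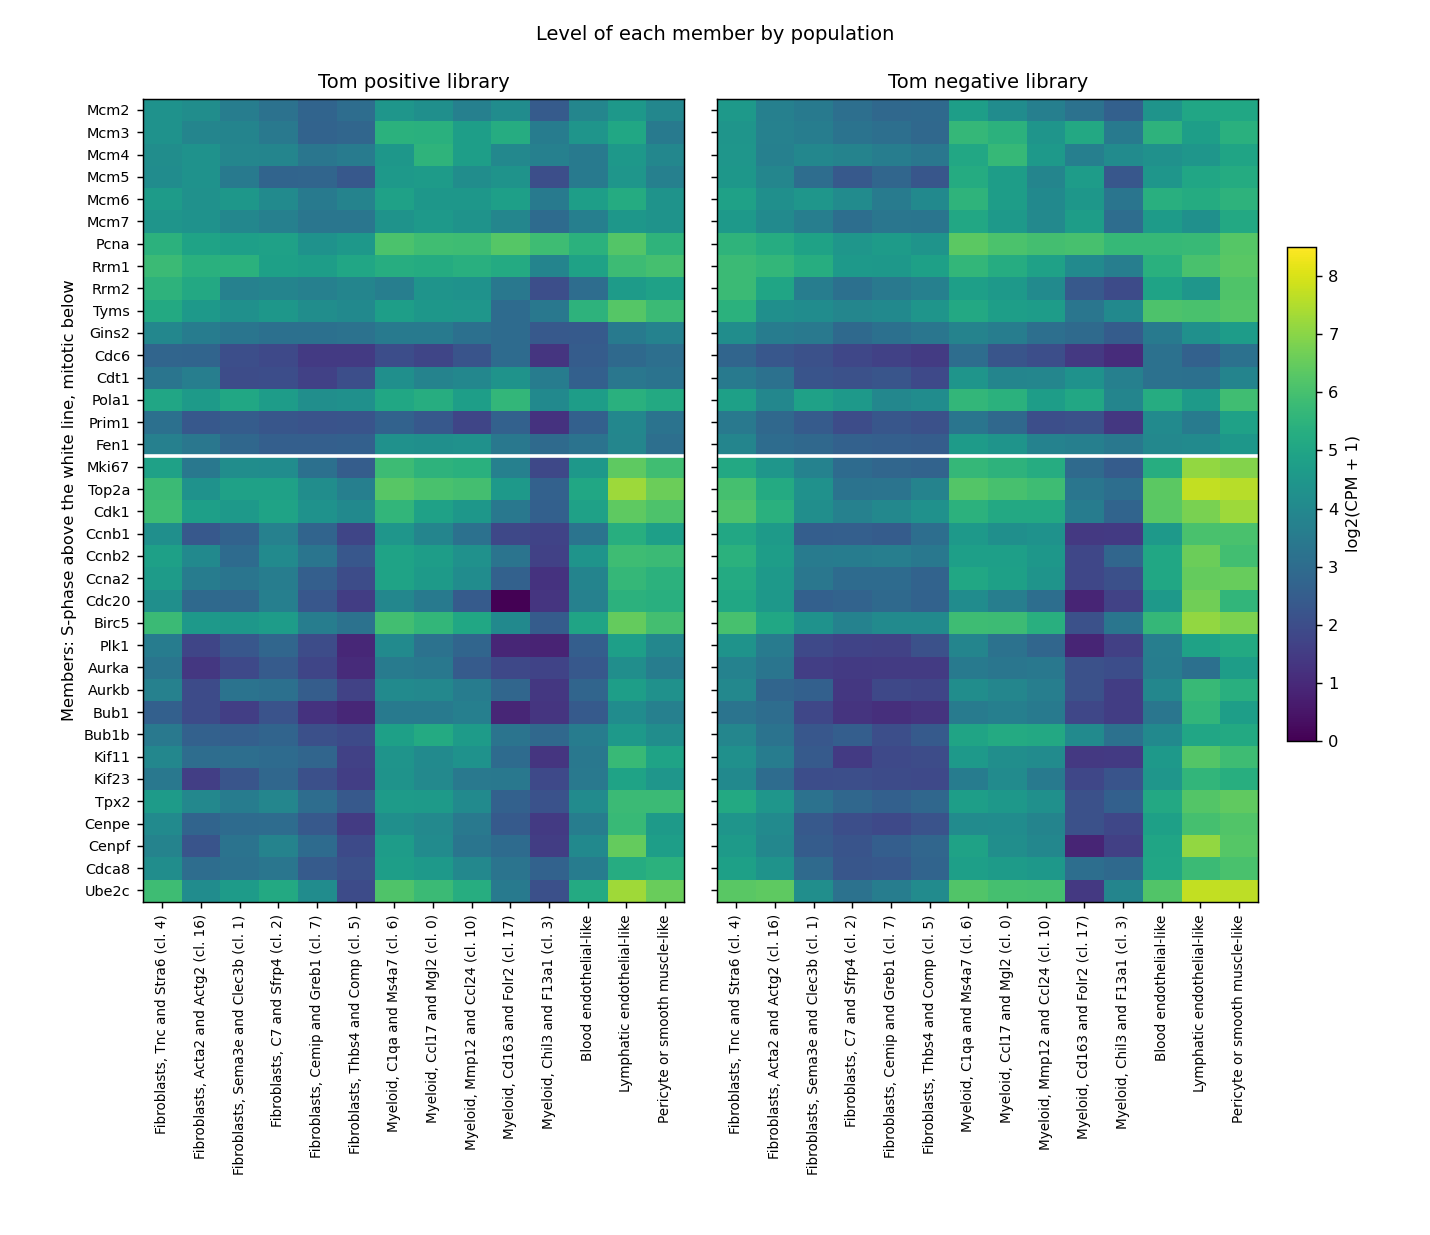
Level of each of the 36 members, as log2 of CPM plus 1 by colour, in 14 populations (columns) of the Tom positive library (left) and the Tom negative library (right). Lymphatic and mural columns are bright for most mitotic members, and the Chil3 and F13a1 myeloid column (cluster 3) is dark, with Mki67 at 2.56 and 4.59 CPM there.

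Lymphatic cells in one library and mural cells in the other led most members. Among 12 Tom positive populations with at least 100 cells of 5000 UMIs or more, lymphatic endothelial-like cells held the highest level of 27 of 36 members. Among 11 such Tom negative populations, pericyte or smooth muscle-like cells were highest for 29 of 36. Each of these classes reached 100 such cells in only that library. Mki67, the usual marker of dividing cells, was at 83.5 CPM in Tom positive lymphatic cells, 56.1 CPM in the C1qa and Ms4a7 macrophage-like cells (cluster 6) and 2.56 CPM in monocyte-like cells (cluster 3, led by Chil3 and F13a1). In the Tom negative library it was at 119 CPM in mural cells, 49.3 CPM in cluster 6 and 4.59 CPM in cluster 3. Among these ranked populations, monocyte-like cells were thus the lowest for Mki67 in both libraries. Of the members that other populations led, 8 of 9 in the Tom positive and 6 of 7 in the Tom negative library were replication genes. Mcm4 was highest in the Ccl17 and Mgl2 myeloid cells (cluster 0) of both libraries, at 44.9 and 50.3 CPM. Cdt1, which loads the helicase, was highest in cluster 6, at 17.7 and 20.6 CPM, as was Mcm3, at 42.3 and 49.3 CPM. Bub1b, a guardian of the spindle checkpoint, was the mitotic member that differed in this way, highest in cluster 0 at 36.04 and 35.7 CPM. Its lead there over the next population, at 27.6 and 35.1 CPM, was slight in the Tom negative library.

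To ask how many cells carried these RNAs, each cell was thinned at random to 5000 UMIs and cells with fewer were left out, which kept 3488 and 4501 cells. Most kept no or few member UMIs: 2737 cells had 0, 2437 had 1 and 1209 had 2. The numbers declined to 227 cells with 4, 111 with 5 and 28 with 9, then lay between 25 and 37 cells for each count from 10 to 19, a low, broad second rise, and 64 cells had more than 30. A cell with at least 5 member UMIs is called member-high. The limit of 5 lies on the declining slope, below the low point at 9, so member-high is a range and not a cell type, and 36 and 84 fibroblast-like cells and 83 and 130 mononuclear myeloid cells lay within 1 UMI of the limit. Without thinning, 61.3% and 64.4% of fibroblast-like cells had at least 5 member UMIs, so the share depends on the depth kept.

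Member-high cells made up 9.83% (343 of 3488) of the Tom positive library and 12.4% (556 of 4501) of the Tom negative one. They were 7.14% (5.88 to 8.57; 106 of 1485) and 9.13% (8.005 to 10.4; 217 of 2376) of fibroblast-like cells. They were 9.85% (8.26 to 11.6; 124 of 1259) and 13.3% (11.7 to 14.9; 236 of 1777) of mononuclear myeloid cells. In both classes the Tom positive share was lower, by 1.99 percentage points in fibroblasts (interval of the difference -3.71 to -0.200) and by 3.43 points in myeloid cells (-5.68 to -1.11). Mural cells had 22.7% (10 of 44) and 33.3% (49 of 147), with an interval of the difference from -23.3 to 5.33 points. Lymphatic cells had 25% (34 of 136) in the Tom positive library, while 4 of 10 Tom negative cells were member-high, an interval of 12.2 to 73.8%. Carcinoma-like cells had 29.2% (7 of 24) and 24.0% (6 of 25). No neutrophil-like cell was member-high, 0 of 21 and 0 of 14, which allows shares of up to 14.3% and 21.4%. As few of these reach 5000 UMIs, they were also thinned to 2000 UMIs with a limit of 2 member UMIs, where 10.8% (28 of 260) and 5.48% (25 of 456) passed, the background that this looser limit carries. At the same looser limit 10.9% and 13.4% of fibroblast-like cells passed, so the Tom positive fibroblast share there is about that of neutrophils and is not read as division.

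**Figure D2:**
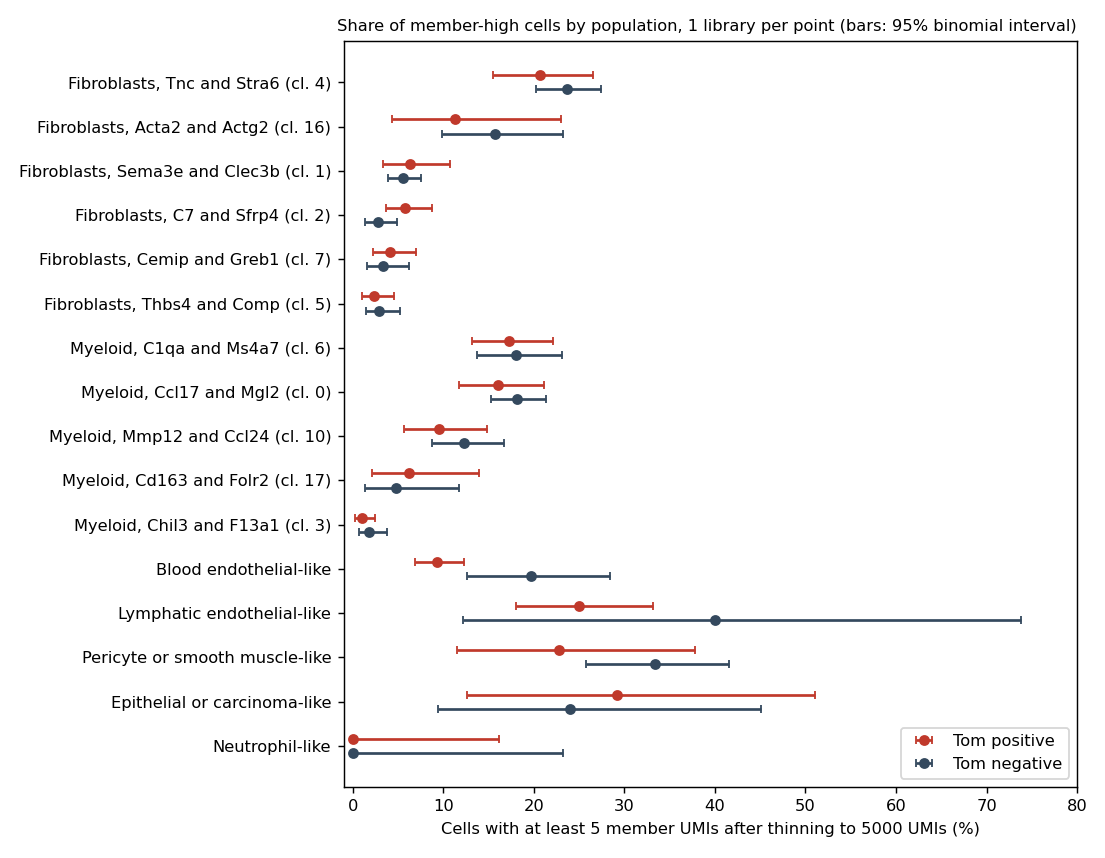
Share of cells with at least 5 member UMIs after thinning to 5000 UMIs (x axis, percent) in 16 populations, Tom positive in red and Tom negative in dark blue; bars are exact 95% binomial intervals. The Tnc and Stra6 fibroblasts (cluster 4) lie at 20.6% and 23.7%, far to the right of the Thbs4 and Comp fibroblasts (cluster 5) at 2.35% and 2.94%, and blood endothelial-like cells at 9.31% and 19.6%.

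The share differed more between fibroblast subsets than between the libraries. Fibroblasts led by Dio3, Crabp1, Tnc and Stra6 (cluster 4) were member-high in 20.6% (15.5 to 26.5; 46 of 223) of Tom positive and 23.7% (20.2 to 27.5; 130 of 549) of Tom negative cells. Fibroblasts led by Actg2, Acta2 and Serpinb2 (cluster 16) followed with 11.3% and 15.7%. Shares were 6.32% and 5.51% in the Clec3b and Sema3e fibroblasts (cluster 1), 4.11% and 3.30% in the Greb1 and Cemip fibroblasts (cluster 7), and 2.35% and 2.94% in the Thbs4 and Comp fibroblasts (cluster 5). Cluster 4 was thus the main home of member-high fibroblasts in both libraries. Its cells were 15.02% and 23.1% of all fibroblasts, but 43.4% and 59.9% of the member-high ones. The mix of subsets differed between the libraries along with the share. When the 6 clusters were given the same weights in both libraries, taken from the pooled mix, the fibroblast shares were 8.24% and 8.26%; with equal weights they were 8.42% and 8.99%.

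Myeloid subsets were spread as widely. The C1qa and Ms4a7 macrophage-like cells (cluster 6) were member-high in 17.3% and 18.1%, and the Ccl17 and Mgl2 cells (cluster 0), which took no finer name, in 16.02% and 18.1%. The Ccl24 and Mmp12 cells (cluster 10, also without a finer name) had 9.55% and 12.3%, the Retnla and Ear2 macrophage-like cells (cluster 23) 15.2% and 20.0%, and the Cd163 and Folr2 macrophage-like cells (cluster 17) 6.25% and 4.76%. Monocyte-like cells of cluster 3 had 0.966% (4 of 414) and 1.75% (6 of 342). Monocyte-like cells were 32.9% of Tom positive and 19.2% of Tom negative myeloid cells, and cluster 0 was 20.3% and 36.9%. With the pooled mix as weights over 6 clusters, the myeloid shares were 10.9% and 12.4%, closer together than the unweighted ones.

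Across all cells together 1 of 28 measured members, Ccnb1 at 11.2 and 17.1 CPM, was at least 1.5-fold lower in the Tom positive library and none was higher, beside 1.64% of all measured genes lower and 6.12% higher. Within fibroblast-like cells the members lay a little lower in the Tom positive library, the mitotic ones more so. Of 24 measured members, 23 had a ratio below 1, but only 5 were at least 1.5-fold lower and none was higher. Over all genes measured in fibroblasts, 1.45% were lower and 0.829% higher. The 5 were mitotic. Ccnb1 (chromosome 13, 100778650 to 100786570 in mm10), which encodes cyclin B1, had 8.57 and 14.5 CPM and a ratio of 0.590 (0.533 to 0.652). Ccnb2 was at 12.8 and 20.8 CPM, and Ccna2, the cyclin of S phase and early mitosis, at 10.2 and 16.6 CPM. These 3 cyclins of the Cdk1 and Cdk2 kinases were all in the lower group. Cdc20 (chromosome 4, 118432901 to 118437352) was at 8.22 and 14.4 CPM, a ratio of 0.572, and Cdca8, the borealin subunit of the chromosomal passenger complex, at 8.07 and 12.6 CPM. Other mitotic members were closer to 1, as Mki67 with 14.0 and 16.7 CPM and Top2a with 26.7 and 28.8 CPM. The 12 members under 10 CPM were Cdc6, Cdt1, Prim1, Fen1, Plk1, Aurka, Aurkb, Bub1, Bub1b, Kif11, Kif23 and Cenpe, each with a lower Tom positive value, from Bub1 at 2.57 and 4.12 CPM to Cenpe at 6.82 and 9.25 CPM. Pola1, the catalytic subunit of DNA polymerase alpha, was the measured member above 1, at 23.8 and 23.0 CPM. The summed level had a ratio of 0.805, made of 0.878 for the S-phase and 0.743 for the mitotic members. The median log2 difference was -0.21 for the S-phase and -0.45 for the mitotic members, against -0.03 for all genes measured in fibroblasts.

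Subsets of the fibroblasts differed in opposite directions. In the C7 and Sfrp4 fibroblasts (cluster 2) 13 of 19 measured members were at least 1.5-fold higher in the Tom positive library and none was lower, where 2.24% of all genes measured there were higher and 2.55% lower. These were 10 of 11 mitotic and 3 of 8 S-phase members. Ube2c (chromosome 2, 164769898 to 164778822), the enzyme that passes ubiquitin to the targets of the anaphase-promoting complex, was at 35.1 CPM against 8.11 CPM, a ratio of 4.33 (3.52 to 5.35). Cenpf, a kinetochore protein, was at 13.03 and 3.67 CPM, Top2a at 28.1 and 8.33 CPM, and Mki67 at 16.5 and 6.77 CPM. The exception among the mitotic members was Ccnb2, at 15.8 and 10.9 CPM, a ratio of 1.44. Of the S-phase members the deoxynucleotide makers Rrm2 (13.2 and 7.76 CPM) and Tyms (21.4 and 13.9 CPM) and the helicase subunit Mcm7 (12.0 and 7.41 CPM) were higher, while Mcm6 was level at 15.7 and 16.3 CPM. Member-high cells were 5.79% (3.62 to 8.71; 21 of 363) and 2.75% (1.38 to 4.87; 11 of 400) of this subset, a difference of 3.04 points (0.151 to 6.17). In another random thinning of the same cells 21 of 363 and 13 of 400 (3.25%) were member-high. The lower bound of the difference, close to 0, thus depends on the draw. The member UMIs of this subset come from few cells, 21 and 11, and a dividing cell gives many UMIs at a time. The intervals of the ratios therefore understate the error. The count was 13 of 19 also without doubted barcodes, 14 with a mitochondrial limit of 5% and 12 with one of 20%.

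In the Tnc and Stra6 fibroblasts (cluster 4), the subset with the most member-high cells, 7 of 33 measured members were lower in the Tom positive library and none was higher, beside 1.39% and 0.987% of all genes there. All 7 were mitotic. Ccnb1 stood at 17.7 and 33.0 CPM, a ratio of 0.537 (0.460 to 0.624), Cdc20 at 17.9 and 32.5 CPM, and Plk1 (chromosome 7, 122159439 to 122169873) at 10.8 and 19.8 CPM. Cenpf was at 12.9 and 23.9 CPM, Cdca8 at 16.8 and 27.4 CPM, Kif23, a motor of the dividing cell's midzone, at 9.68 and 15.2 CPM, and Ccnb2 at 27.4 and 42.4 CPM. Several of these, Ccnb1, Cdc20, Plk1 and Cenpf, are known to peak late in the cycle, and the general markers were closer, with Mki67 at 28.1 and 34.0 CPM and Top2a at 54.2 and 62.3 CPM. None of the 14 measured S-phase members was past 1.5-fold, Rrm1 being at 54.7 and 54.8 CPM. The interval of the difference in member-high cells ran from -9.12 to 3.64 points. The count was 7 of 33 without doubted barcodes, 10 of 34 with a mitochondrial limit of 5% and 8 of 33 with one of 20%.

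The remaining large fibroblast subsets showed few members past 1.5-fold. In cluster 1 Top2a was higher (28.4 and 18.5 CPM) and Ccnb2 lower (6.86 and 10.6 CPM) of 18 measured, beside 1.19% and 1.1% of all genes. In cluster 7 Top2a was higher (16.97 and 8.57 CPM) of 12 measured and none was lower, beside 0.813% and 1.56%. In cluster 5 Ube2c (2.86 and 15.97 CPM) and Birc5, the survivin subunit of the passenger complex (8.23 and 15.7 CPM), were lower of 11 measured and none was higher, beside 1.39% and 1.28%. The summed member level had a ratio of 1.71 in cluster 2, 1.17 in cluster 1, 1.07 in cluster 7, 0.823 in cluster 5 and 0.789 in cluster 4.

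**Figure D3:**
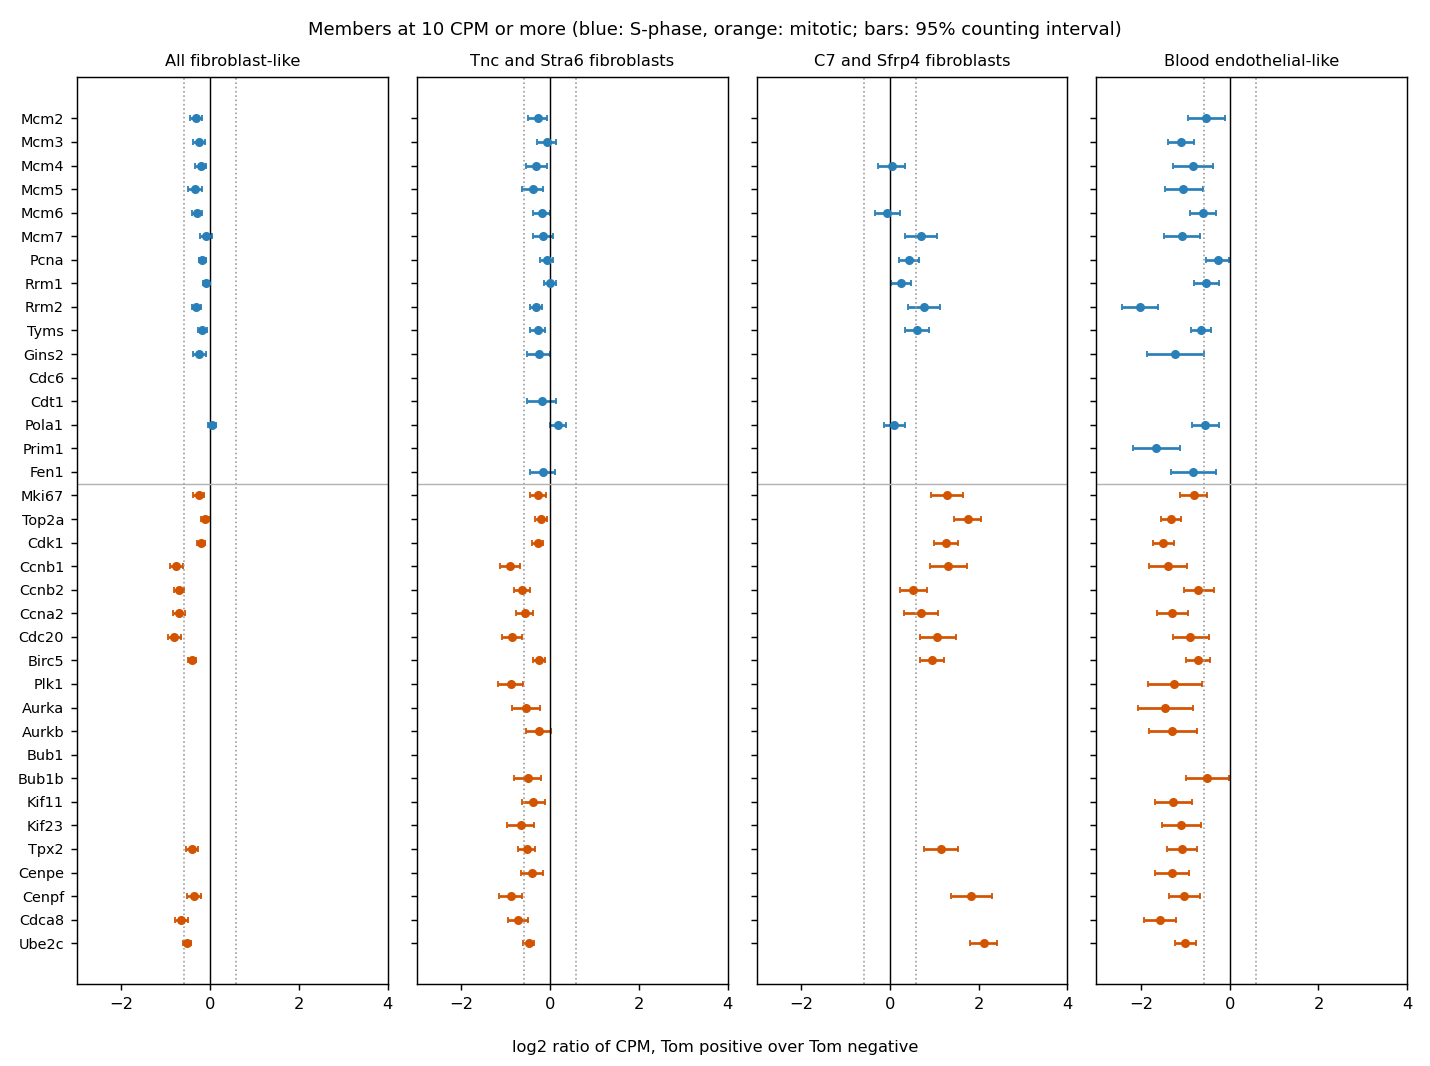
Ratio of CPM, Tom positive over Tom negative, on a log2 axis for measured members, in all fibroblast-like cells, cluster 4, cluster 2 and blood endothelial-like cells; bars are 95% counting intervals and dotted lines mark 1.5-fold. Points lie to the right of 0 for 18 of 19 members in cluster 2 and to the left for all 33 in blood endothelial-like cells.

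In mononuclear myeloid cells none of 29 measured members was past 1.5-fold in either direction, beside 1.14% of all genes higher and 1.33% lower. Of these 29, 28 had a ratio below 1, with Mki67 at 33.0 and 34.8 CPM and Ube2c at 38.4 and 52.9 CPM, and Kif23 at 11.5 and 11.3 CPM was the exception. The 7 members under 10 CPM there were Gins2, Cdc6, Prim1, Cdc20, Plk1, Aurka and Bub1, with Plk1 at 7.08 and 7.10 CPM and Aurka at 6.57 and 8.22 CPM. The summed level had a ratio of 0.846, and the median log2 difference was -0.24 against 0.02 for all measured genes. With a mitochondrial limit of 5%, 9 members were lower, and no share of all genes is given at that limit. The median mitochondrial share was 5.07% in member-high and 3.61% in other Tom positive myeloid cells, and 4.94% and 4.41% in Tom negative ones.

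In the C1qa and Ms4a7 macrophage-like cells (cluster 6) the S-phase members were the lower ones. Of 34 measured members 6 were lower in the Tom positive library and 1 higher, beside 2.08% and 1.69% of all genes there. All 6 were S-phase members. Rrm2, the limiting subunit of ribonucleotide reductase, had 11.3 and 27.1 CPM and a ratio of 0.417 (0.312 to 0.553). Of the helicase, Mcm4 was at 21.8 and 33.0 CPM, Mcm5 at 23.2 and 36.3 CPM, Mcm6 at 28.4 and 45.1 CPM and Mcm7 at 19.5 and 32.8 CPM, and Pola1 was at 32.4 and 48.9 CPM. The mitotic members did not follow, with Mki67 at 56.1 and 49.3 CPM, Top2a at 78.2 and 74.7 CPM and Kif23, the higher one, at 19.7 and 10.9 CPM. S-phase members summed to 387 and 536 CPM and mitotic ones to 619 and 608 CPM. With a mitochondrial limit of 5%, 4 S-phase and 1 mitotic member were lower and none was higher of 32, and the ratios of the sums were 0.811 and 0.971, against 0.722 and 1.02 before. All macrophage-like clusters together had 2 members lower and 1 higher of 32, beside 2.35% and 2.24%. In cluster 0 none of 32 was past 1.5-fold, beside 0.762% and 0.812%. With a mitochondrial limit of 5%, however, 13 of 32 there, all mitotic, were lower, and no share of all genes is given at that limit. In cluster 10, 5 of 30 were lower and none higher, beside 1.92% and 1.37%. These 5 were mitotic, among them Ccnb1 at 8.10 and 19.2 CPM and Ube2c at 38.5 and 60.95 CPM. With a mitochondrial limit of 5%, 6 mitotic members were lower and 4 S-phase members higher of 31 in cluster 10. No share of all genes is given at that limit for clusters 6 and 10 either. In monocyte-like cells only 9 members were measured, of which Tyms (9.70 and 15.4 CPM) and Ube2c (3.23 and 13.6 CPM) were lower and none was higher, beside 2.18% and 2.1%.

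Of the classes set against all genes, blood endothelial-like cells showed the most members apart between the libraries. Of 33 measured members 28 were at least 1.5-fold lower in the Tom positive library and none was higher, where 7.61% of all genes measured there were lower and 5% higher. They were 18 of 19 mitotic and 10 of 14 S-phase members. All 33 had ratios below 1, a direction that was not set against all genes. Rrm2 had 7.26 and 29.6 CPM and a ratio of 0.245 (0.186 to 0.325), Cdk1 at 27.9 and 78.4 CPM, and Top2a (chromosome 11, 98992943 to 99024189) at 32.6 and 81.1 CPM. Mki67 was at 22.0 and 38.7 CPM, and Pcna, the closest, at 42.1 and 50.8 CPM. Member-high cells were 9.31% (6.82 to 12.3; 43 of 462) and 19.6% (12.6 to 28.4; 21 of 107), a difference of 10.3 points with an interval from -19.2 to -3.24. Subsets and depth differed too. The Selp subset (cluster 11) held 70.3% of Tom positive cells in this count but 40.2% of Tom negative ones, and the Gpihbp1 subset (cluster 14) 29.2% and 57.9%. Within cluster 11 the shares were 7.38% (24 of 325) and 14.0% (6 of 43) and within cluster 14 13.3% (18 of 135) and 22.6% (14 of 62), lower in the Tom positive library in both, though both intervals of the difference include 0 (-20.1 to 1.56 and -22.0 to 1.71 points). Summed levels were 509 and 822 CPM in cluster 11 and 658 and 1223 CPM in cluster 14. Without doubted barcodes 28 of 32 members were lower. The shares were then 9.31% (6.82 to 12.3) and 18.7% (11.8 to 27.4), with separate intervals that overlap. They count the same 462 and 107 cells in another random thinning, so these shares do not test the doubted barcodes. Separate intervals overlap also with a mitochondrial limit of 20%, at 10.7% and 18.4%. The same held when thinned to 2000 UMIs with at least 2, at 17.5% (14.2 to 21.2) and 23.1% (15.96 to 31.7). Overlap of separate intervals does not mean that an interval of the difference would include 0. No interval of the difference was computed for these settings. Of the 234 Tom negative cells, 118 were in the shallow cluster 20, at a median of 1246 UMIs; their part in the summed levels was not tested, and the member-high shares leave out nearly all of them.

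Mural, lymphatic and carcinoma-like cells had under 100 cells in a library, so their counts of members past 1.5-fold were not set against all genes. In mural cells the Tom positive levels came from 46 cells. Mki67 was at 58.5 and 119 CPM, Top2a at 95.8 and 191 CPM, and Cenpe, a kinetochore motor, at 23.7 and 72.3 CPM. Ccnb2 (54.3 and 60.4 CPM) and Cdc20 (39.9 and 47.5 CPM) were nearer to each other. In carcinoma-like cells the order was the other way round for Mki67, at 64.8 and 14.9 CPM, and Birc5, at 127 and 25.2 CPM, from 7 and 6 member-high cells. In lymphatic cells Top2a was at 150.01 and 210 CPM and Mcm6 at 36.5 and 36.7 CPM, the Tom negative values resting on 80 and 14 UMIs.

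Populations also differed in the balance of S-phase and mitotic members. In thinned cells at least 3 S-phase UMIs were found in 7.88% and 9.60% of fibroblast-like cells and at least 3 mitotic UMIs in 5.79% and 7.66%. In mononuclear myeloid cells these were 13.2% and 16.04% against 8.02% and 10.6%. Monocyte-like cells leaned to the S-phase side, 6.04% and 5.85% against 0.725% and 1.75%. The Cd163 and Folr2 macrophage-like cells did too, 11.3% and 10.7% against 3.75% and 1.19%, the last from 1 cell. Cluster 4 was even or tipped to mitosis, 17.04% and 19.1% against 17.5% and 20.6%, as were mural cells, 15.9% and 29.3% against 18.2% and 28.6%. The ratio of summed S-phase to mitotic UMIs, which reads all cells, was 3.00 and 1.90 in monocyte-like cells and 2.39 and 3.52 in cluster 17. It was 0.783 and 0.631 in cluster 4, 0.443 and 0.421 in mural cells and 0.408 and 0.254 in lymphatic cells. The measures differed for several populations, where more cells passed the limit for S-phase UMIs although mitotic UMIs were more in sum. Among them were Tom positive lymphatic cells (25% against 21.3%), Tom negative fibroblast-like cells (9.60% against 7.66%) and Tom positive cluster 6 (19.3% against 13.2%). Their lean to S phase or mitosis thus depends on the measure. Between the libraries the ratio of sums was 0.996 and 0.843 in fibroblast-like cells, and within cluster 2 0.755 and 1.51. Of member-high fibroblast-like cells, 23.6% and 19.8% passed the limit of 3 for the S-phase members alone, 24.5% and 31.8% for the mitotic ones alone, and 51.9% and 48.4% for both. An S-phase excess in cells with few member UMIs is not read as cycling, since Pcna alone was at 92.7 and 38.3 CPM in neutrophil-like cells.

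**Figure D4:**
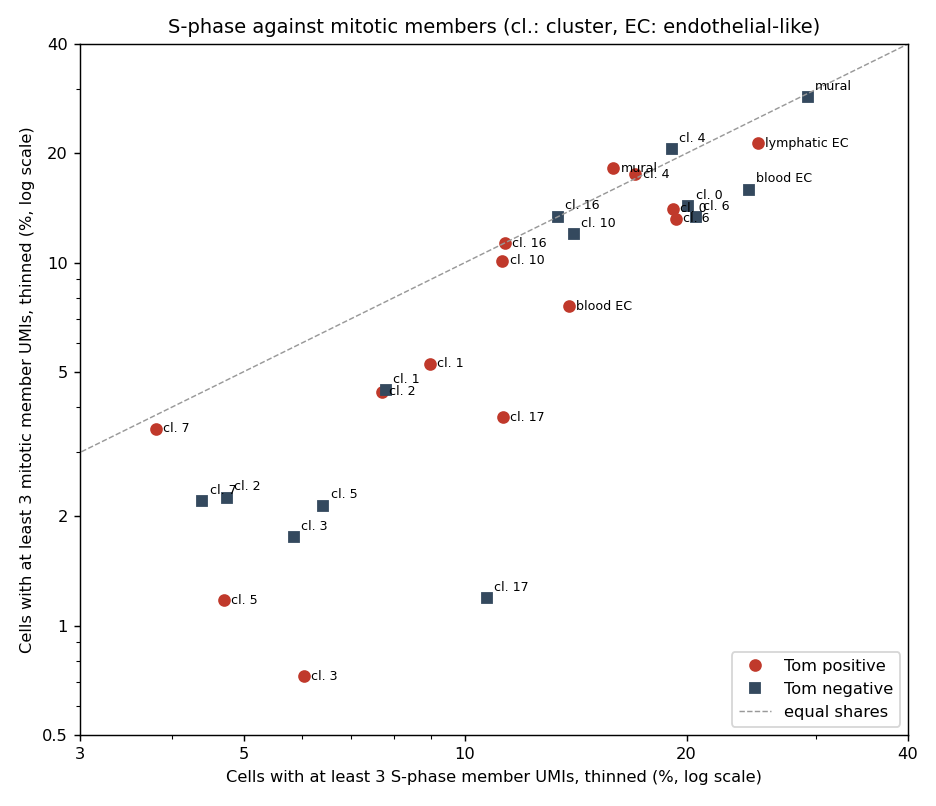
Share of thinned cells with at least 3 S-phase UMIs (x axis) against at least 3 mitotic UMIs (y axis), both in percent on log scales, for each population and library; the dashed line marks equal shares. Clusters 3, 5 and 17 lie below the line, and cluster 4 and mural cells lie on or near it.

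Members differed in how strictly their RNA kept to the member-high cells. For each member the other 35 were used to find member-high cells, and the share of its own thinned UMIs in them was taken. For mitotic members the median share was 81.1% and 81.3% in fibroblast-like and 75.9% and 79.6% in mononuclear myeloid cells. For S-phase members it was 39.5% and 40.8%, and 43.9% and 47.3%. Mitotic RNA was thus mostly held by a small share of cells, and replication RNA was spread more widely. In fibroblasts Cenpe was highest in the Tom positive library with 93.5%, against 85.3% in the Tom negative one, where Aurka, a spindle pole kinase, was highest with 90.5%, and Ccnb2 was the lowest mitotic member there with 52.2% and 51.8%. Bub1b was the lowest mitotic member in myeloid cells, at 43.8% and 38.2%. Pcna, which also serves DNA repair, had 32.5% and 37.1% in fibroblasts and 19.7% and 31.5% in myeloid cells. The S-phase members that kept most to these cells were Mcm5 in fibroblasts, with 77.1% and 69.4%, and Rrm2 in myeloid cells, with 86.0% and 91.0%.

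**Figure D5:**
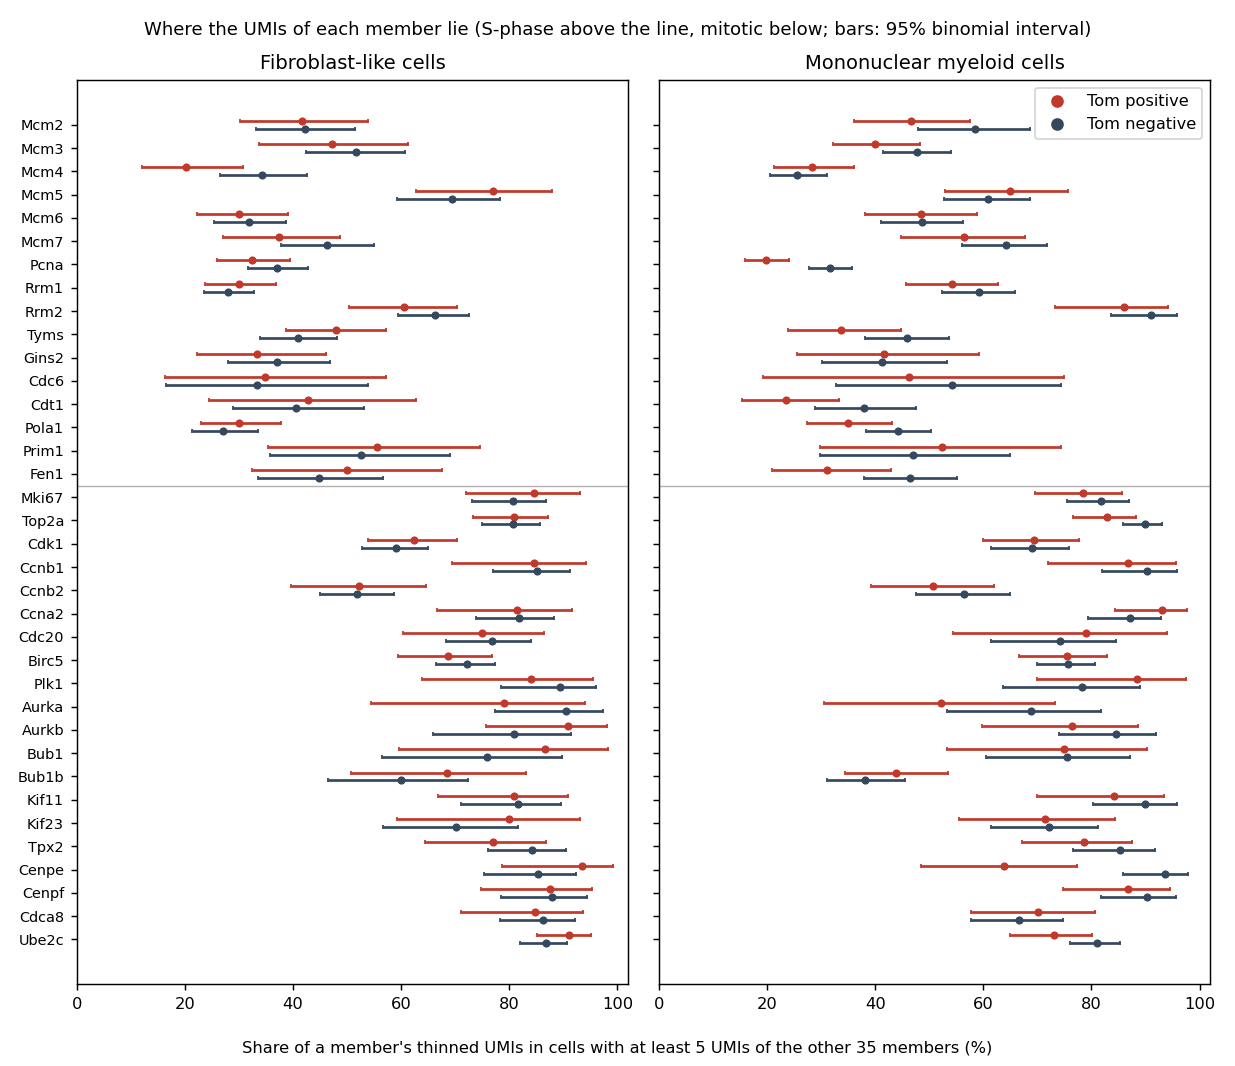
Share of each member's thinned UMIs that lie in cells with at least 5 UMIs of the other 35 members (x axis, percent), in fibroblast-like (left) and mononuclear myeloid cells (right); Tom positive in red, Tom negative in dark blue, bars are 95% binomial intervals. Mitotic members sit mostly above 60% and S-phase members mostly below it, with Ccnb2 and Bub1b among the low mitotic ones and Mcm5 and Rrm2 among the high S-phase ones.

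Member-high cells were then compared with the other cells of the same class and library for genes outside the 36. Of other replication genes measured in fibroblasts, 45 of 45 Tom positive and 44 of 44 Tom negative ones were at least 1.5-fold higher in member-high cells, where 12.9% and 14.3% of all genes were. Of other mitosis genes 62 of 63 and 63 of 64 were higher. In myeloid cells these were 40 of 42 and 43 of 44, and 63 of 64 and 60 of 63, beside 15.2% and 12.5% of all genes. Nearly all measured genes of the wider division lists were thus higher where the members were. Pttg1, the securin that holds sister chromatids, did not, at 23.7 against 23.7 CPM in Tom positive and 23.7 against 23.4 CPM in Tom negative fibroblasts. Of the genes that govern entry into the cycle, 21 of 31 and 20 of 31 were higher in fibroblasts. Ccne2, cyclin E2, was at 28.3 CPM in member-high and 1.74 CPM in other Tom positive fibroblasts, and at 31.6 and 1.84 CPM in Tom negative ones. E2f7, an E2F repressor that is itself switched on by E2F, was at 25.8 and 0.852 CPM, and at 20.3 and 1.22 CPM. Ccnd1, cyclin D1, was at 42.0 and 20.9 CPM, and at 39.7 and 14.4 CPM, while Ccnd3 was slightly lower in member-high cells of both libraries.

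The 7 inhibitors of cyclin kinases did not differ as 1 group. Lower genes were 9.78% and 10% of all measured in fibroblasts and 6.78% and 3.81% in myeloid cells. Cdkn1c, which encodes p57, was at 18.6 CPM in member-high and 174 CPM in other Tom positive fibroblasts, and at 18.1 and 190 CPM in Tom negative ones, 9.37- and 10.5-fold lower. Subsets differed in this gene as well, as the other cells of cluster 4, which gave most member-high fibroblasts of the Tom negative library, held 18.3 and 19.6 CPM. Within cluster 1, however, it was at 14.96 against 328 CPM and 38.1 against 322 CPM, and within cluster 2 at 34.9 against 193 CPM and 45.4 against 221 CPM. Cdkn2c and Cdkn2d, which encode p18 and p19 of the INK4 family, were higher in member-high fibroblasts, at 53.2 against 15.2 CPM and 57.5 against 15.1 CPM in the Tom positive library and at 41.2 against 17.3 CPM and 56.5 against 18.1 CPM in the Tom negative one. They were higher in member-high myeloid cells too, Cdkn2c at 48.3 against 4.11 CPM and 38.3 against 4.53 CPM. Cdkn2a was not past 1.5-fold in fibroblasts, at 16.9 against 14.98 CPM and 20.7 against 15.8 CPM. Within Tom positive fibroblast subsets it went both ways, at 20.6 against 8.69 CPM in cluster 2, from 23 UMIs in 21 member-high cells, and at 15.03 against 24.9 CPM in cluster 4. In the Tom negative library these were 10.8 against 8.21 CPM and 22.6 against 25.5 CPM. After thinning, a Cdkn2a UMI was found in 3.77% of member-high and 6.02% of other Tom positive fibroblasts, and in 13.8% and 6.86% of Tom negative ones. In myeloid cells these shares were 12.9% and 18.8% in the Tom positive library and 9.32% and 10.6% in the Tom negative one. Their separate intervals overlapped in both libraries. By CPM, Cdkn2a was lower in member-high myeloid cells, at 22.6 against 56.7 CPM and 14.99 against 26.7 CPM. Within cluster 10 it was at 36.4 against 86.0 CPM and 16.8 against 37.6 CPM and within cluster 6 at 12.4 against 24.1 CPM and 11.7 against 19.8 CPM, but in cluster 0 at 26.8 against 31.4 CPM and 16.99 against 17.4 CPM. Cdkn1a, the p53 target p21, was lower within cluster 6, at 203 against 363 CPM and 214 against 437 CPM. In cluster 4 it was at 24.2 against 69.9 CPM in the Tom positive library, past 1.5-fold, and at 27.1 against 40.1 CPM in the Tom negative one, a ratio of 0.675. Cdkn1b, p27, was within 1.5-fold in both classes, and Cdkn2b, p15, was at 4.92 against 6.15 CPM and 10.3 against 6.66 CPM in fibroblasts and under 10 CPM in myeloid cells.

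Member-high cells were also deeper before thinning, with medians of 62540 against 39885 UMIs in Tom positive fibroblasts and 63520 against 37282 in Tom negative ones. In myeloid cells these were 31348 against 18928 and 32619 against 19869 UMIs. The median of 8 macrophage markers summed was 69.2 CPM in member-high and 67.3 CPM in other Tom positive fibroblasts, and 104 and 107 CPM in Tom negative ones, and medians of epithelial and of T or NK cell markers were 0 in both. The 7 mural markers were at 33.7 and 20.6 CPM, and at 59.3 and 27.9 CPM. The 7 blood endothelial markers were at 19.9 and 21.3 CPM, and at 17.2 and 0 CPM. The 8 fibroblast markers had medians of 52520 and 71436 CPM, and 37657 and 61165 CPM. In member-high and other myeloid cells the blood endothelial markers were at 36.7 and 61.5 CPM (Tom positive) and at 22.7 and 0 CPM (Tom negative). Epithelial markers there were at 20.7 and 21.8 CPM, and at 53.4 and 16.3 CPM. Fibroblast markers were lower in member-high myeloid cells of both libraries, and medians of mural and of T or NK markers were 0. The part of doublets that escaped removal was not tested beyond these medians.

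Between the libraries few genes of the wider lists were past 1.5-fold in fibroblasts, where 1.45% of all genes were lower and 0.829% higher. Of 28 other mitosis genes measured 2 were lower and none higher, and 26 had a ratio below 1. Of 22 other replication genes none was past 1.5-fold and 16 were below 1, and of 20 entry genes none was past 1.5-fold and 11 were below 1. The centromere histone Cenpa was at 18.2 and 33.1 CPM, a ratio of 0.550, and Tacc3, a spindle protein, at 8.62 and 13.02 CPM. The entry genes furthest apart were Wee1, the kinase that restrains Cdk1, at 41.2 and 30.9 CPM, and Myc at 72.6 and 98.8 CPM. None of the 6 inhibitors measured in fibroblasts was past 1.5-fold, Cdkn2a being at 15.2 and 16.5 CPM and Cdkn1a at 46.3 and 59.8 CPM. In myeloid cells Cdkn2a, the gene whose locus drives the Cre, was at 51.6 and 24.3 CPM, the one inhibitor past 1.5-fold there. In macrophage-like cells Ckap2l, a spindle protein, was higher at 34.9 and 19.5 CPM and Pbk, a mitotic kinase, at 12.4 and 8.23 CPM, while Ung (5.06 and 10.7 CPM) and Uhrf1 (15.4 and 24.7 CPM) of the replication list and cyclin D2 gene Ccnd2 (42.2 and 70.7 CPM) were lower. In blood endothelial-like cells 39 of 47 other mitosis genes and 17 of 34 other replication genes were lower, beside 7.61% of all genes measured there. In cluster 2, 9 of 23 other mitosis genes and 1 of 19 other replication genes were higher, beside 2.24% of all genes measured there. In cluster 6, 8 of 35 other replication genes and 0 of 47 other mitosis genes were lower, beside 2.08% of all genes there.

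Within the Tom positive library, cells were set apart by their own tdTomato level. Of fibroblast-like cells at 500 CPM of tdTomato or more, 5.95% (3.44 to 9.48; 16 of 269) were member-high, against 7.40% (5.99 to 9.02; 90 of 1216) of the rest. In cluster 4 these were 12.9% (5.74 to 23.9; 8 of 62) and 23.6% (17.3 to 30.9; 38 of 161). In 5 of 6 fibroblast clusters the reporter-high share was the lower one, with 0 of 23 cells in cluster 2 and 0 of 27 in cluster 5, which allow up to 13.04% and 11.1%, and cluster 16 was the exception at 12.0% and 10.7%. Mononuclear myeloid cells stood the other way, at 10.2% (96 of 945) and 8.92% (28 of 314), with 18.3% and 11.5% in cluster 0, 18.1% and 15.2% in cluster 6 and 11.1% and 4.65% in cluster 10. Cluster 17 was the reverse, at 3.45% (2 of 58) and 13.6% (3 of 22). The log2 ratio of the shares, reporter-high over reporter-low, was -0.32 (-1.18 to 0.46) in fibroblasts and 0.19 (-0.43 to 0.85) in myeloid cells. Both intervals include 0, so no difference was shown in these classes. Within clusters only separate intervals are given. They overlap, which does not decide whether the shares differ. The direction turned in fibroblasts with doublets kept, in myeloid cells with a mitochondrial limit of 5%, and in both classes when thinned to 2000 UMIs. In tdTomato itself, member-high cells of cluster 4 were at 475 CPM and others at 756 CPM. The same order held in cluster 2 (41.1 and 143 CPM) and cluster 1 (597 and 769 CPM). Myeloid clusters went both ways. Cluster 6 was at 1392 and 1130 CPM and cluster 0 at 895 and 760 CPM, but cluster 10 at 1015 and 1155 CPM.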

How the data were processed

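Single-cell RNA was measured in 2 libraries, 1 for each sort. The deposited files hold raw UMI counts per gene and barcode, made by the authors with Cell Ranger; the submitters' processing notes list version 7.0.1 and the mm10 build, and the rule that called cells is not given in the sources used here. Totals were 128275546 (Tom positive) and 164646314 UMIs (Tom negative), over 7568 and 13604 barcodes. Cells with at least 500 genes, 1000 UMIs and at most 10% mitochondrial UMIs were kept, and Scrublet in scanpy 1.11.5 removed 64 and 98 doublets. From 2000 variable genes, without cell cycle and histone genes, 30 principal components and 15 neighbours gave Leiden clusters at resolution 1 (leidenalg 0.10.2). A class name needed 3 of its markers at 50 CPM, a mean log2 excess of 1 over the median cluster, and no other class with more markers among the 10 leading genes. Gene positions are from GENCODE M21, and promoters from RefSeq. Ratios are of plain CPM and median log2 differences of CPM plus 1. Intervals at 95% are exact Poisson, binomial or conditional ones, and Newcombe's for differences (scipy 1.17.1), and a count of 0 was read with a limit of 3 counts. All 36 members, all 7 inhibitors and up to 4 genes each way of each other list, by log2 difference, could be named; genes outside that rule were chosen after their values were seen. The members and lists were chosen with earlier results of these data known. Counts were simulated as Poisson draws for 8534 fibroblast and 7864 myeloid genes. There, 100% of 200 genes set 2-fold apart passed 1.5-fold, and the true ratio lay in the interval for 95.2% and 95.5% of genes. These draws held no clustering of UMIs in single cells and no spread between libraries. They check the computation and not the error in the data. In all, 16 alternative settings were tried; those for blood endothelial, mural and lymphatic cells and for clusters 2 and 4 were chosen after seeing the data.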

Additional observations from a re-analysis of the deposited data

Results flagged for a closer look

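Fibroblast subsets differed in opposite directions between the libraries. The summed member level, Tom positive over Tom negative, had a ratio of 1.71 in the C7 and Sfrp4 fibroblasts (cluster 2), but of 0.789 in the Tnc and Stra6 fibroblasts (cluster 4) and 0.823 in the Thbs4 and Comp fibroblasts (cluster 5). With 1 library per sort, the difference between the subsets was not tested. In cluster 2 the mitotic members summed to 268 and 110 CPM and the S-phase members to 203 and 166 CPM, while in cluster 4 the mitotic ones were at 478 and 662 CPM and the S-phase ones at 374 and 418 CPM. The part that single cells with many member UMIs have in these sums was not tested.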

How the results depend on the processing

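Of 210 values recomputed under 16 settings, 180 stayed within the 95% interval of the reported value, or within 1.5 times for counts. Among these, the log2 ratio of member-high shares in reporter-high over reporter-low cells, whose interval includes 0, changed sign 4 times: in fibroblasts from -0.32 to 0.11 with doublets kept and 0.12 when thinned to 2000 UMIs, and in myeloid cells from 0.19 to -0.01 at a mitochondrial limit of 5% and -0.17 when thinned to 2000 UMIs. Of values whose interval leaves out 0, 1 reversed: in Tom negative fibroblasts the log2 ratio of cells with S-phase to cells with mitotic UMIs was 0.33, and -0.11 when thinned to 10000 UMIs, where it was 0.23 in Tom negative myeloid cells. Thinned to 2000 UMIs with at least 2, it was 1.14 and 0.80 in fibroblasts, and member-high shares were 10.9% and 13.4% in fibroblasts and 17.4% and 20.2% in myeloid cells, 17.5% and 23.1% in blood endothelial cells, and 9.71% and 7.51% in cluster 2. With at least 3 member UMIs they were 11.3% and 15.6% in fibroblasts and 21.4% and 25.5% in myeloid cells; with at least 8, 5.45% and 6.69%, and 6.67% and 9.45%. At a mitochondrial limit of 5%, myeloid shares were 6.32% and 10.7%, the Tom positive log2 phase ratio 1.18, the log2 ratio of summed member CPM -0.40, and 9 members were lower. That log2 ratio was -0.31 in fibroblasts and -0.24 in myeloid cells, and -0.28 and -0.27 with TMM factors; with the mean of per-cell CPM it was -0.25 in fibroblasts, where 1 member was lower. At 25 CPM 0 of 6 measured fibroblast members were lower, and at 1 CPM 1 myeloid member was. The causes were not tested. No paired analysis was possible because each sort gave 1 library and no test was run. Depth limits neutrophils, of which 21 and 14 cells reached 5000 UMIs.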

Other observations

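Some small populations outside the comparisons carried high member levels. An unnamed cluster led by Mmp9, Atp6v0d2, Acp5 and Ctsk (cluster 22, 55 Tom positive and 73 Tom negative cells), genes known from osteoclasts, had summed member levels of 2566 and 3036 CPM, and 7 of 13 and 18 of 30 of its cells with 5000 UMIs were member-high. In T or NK-like cells (40 and 14) the sums were 1501 and 3698 CPM, with 8 of 23 and 5 of 9 member-high. Dendritic-like cells led by Ccr7 (cluster 27) had 575 CPM in 41 Tom negative cells, of which 4 were member-high.

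When the cell cycle and histone genes were left in the clustering, member-high cells formed groups of their own. A cluster of 170 cells held 169 member-high ones, 96 of them from cluster 4, 28 from cluster 1 and 16 from cluster 2, and a cluster of 166 cells held 166, 77 of them from cluster 0, 39 from cluster 6 and 36 from cluster 10. Both were led by Hist1h2ap, a replication-dependent histone gene.

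Hist1h2ap, which is not a member, differed far more between the libraries than the members did. It was at 14.4 and 71.5 CPM in fibroblast-like cells, 4.95-fold lower in the Tom positive library, at 19.8 and 105 CPM in mononuclear myeloid cells, at 16.1 and 155 CPM in blood endothelial-like cells and at 33.9 and 364 CPM in mural cells. In lymphatic cells it was at 54.2 and 52.5 CPM and in the Greb1 and Cemip fibroblasts (cluster 7) at 13.8 and 14.0 CPM. In cluster 2, where the mitotic members were higher in the Tom positive library, it was at 8.43 and 12.7 CPM. The histone genes Hist1h2bc (62.2 and 54.1 CPM) and Hist1h1c (43.3 and 49.4 CPM), which are also made outside S phase, were within 1.5-fold in fibroblasts. Why Hist1h2ap parts from the members was not tested.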
